A study of Homo sapiens with 28 samples.

Results

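The classical cadherins and catenins form adherens junctions, the contacts that hold neighbouring cells together. Their mRNA was followed over 8 groups of cultured human colorectal cancer (CRC) cells. The 10 genes were taken by symbol from the 62703 genes of the deposited count tables. They comprise 6 cadherins (CDH1, CDH2, CDH3, CDH6, CDH11 and CDH13) and 4 catenins (CTNNA1, CTNNB1, CTNND1 and JUP), and each was present once in both tables. RNA-seq covered 24 libraries, 3 in each group. MDST8, a colorectal line of the mesenchymal CMS4 class, gave a WT group and 5 CRISPR-Cas9 TWIST1 knockout clones, named 1.1, 2.2, 3.2, 3.5 and 3.6. Library names give TG1 for clone 1.1, TG2 for clone 2.2 and TG3 for clones 3.2, 3.5 and 3.6. Whether these codes stand for guide RNAs is not stated there. Each clone was grown from a single cell, so that a difference between a clone and WT can belong to the edit or to the founding cell, and these cannot be told apart. LoVo, a colorectal line outside CMS4, gave libraries labelled TWIST1 shRNA and libraries labelled shRNA control. Per the labels all cells grew in DMEM with serum, and mRNA was taken by its poly(A) tail. Since whole cultures were measured, fewer cells of a type and less RNA per cell cannot be told apart. The labels do not say whether the 3 libraries of a group came from separate cultures, so p-values measure the spread between these libraries.

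A classical cadherin spans the cell membrane and binds the same cadherin on the next cell. Its intracellular tail binds β-catenin (CTNNB1) or plakoglobin (JUP), p120-catenin (CTNND1) holds the cadherin at the surface, and α-catenin (CTNNA1) couples the complex to actin. Colonic epithelium carries E-cadherin (CDH1). Replacement of E-cadherin by N-cadherin (CDH2) is known as the cadherin switch, a textbook mark of epithelial-mesenchymal transition (EMT), and TWIST1 is an E-box-binding EMT factor.

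MDST8 libraries summed to between 17252883 and 22217009 counts, and LoVo libraries to between 16567606 and 20889529. TWIST1 mRNA ran against the LoVo labels. TWIST1 had 73, 89 and 93 counts where the label was TWIST1 shRNA, and no count in any of the 3 shRNA controls. The study's methods assessed the knockdown by qRT-PCR and western blot, which were not analysed here. Every LoVo direction below follows the labels. In MDST8, WT held 46.2 CPM of TWIST1 on average and the knockout clones 29.4 to 53.6 CPM, so that the mRNA does not check the knockout label. Of 12 colonic epithelial marker genes, all had a mean of at least 1 CPM in LoVo, but only KRT8 and KRT18 did in MDST8, where CDX1 had 0 counts in every library. The summed level of this list was 65.7 to 136.4 CPM in MDST8, 8464 to 8723 CPM in LoVo labelled shRNA control and 4752 to 5395 CPM in LoVo labelled TWIST1 shRNA. The summed level of 6 mesenchymal markers was 12216 to 20102 CPM in MDST8, and 329.7 to 342.3 and 50.2 to 55.9 CPM in the same LoVo groups. Of 7 fibroblast markers, 5 reached 1 CPM in MDST8 (summed 538.5 to 1517 CPM). In LoVo labelled shRNA control 2 did (5.20 to 7.02 CPM) and in LoVo labelled TWIST1 shRNA 1 did (54.2 to 80.7 CPM), and no endothelial marker did in either line. Of 5 leukocyte markers only ITGAM reached 1 CPM, in LoVo. Mitochondrial transcripts took 36.5% of TPM in replicate 1 labelled TWIST1 shRNA and 12.5 to 23.6% in the other 5 LoVo libraries. This leaves a smaller share of TPM to all other genes in replicate 1. CDH1 had 86.3 TPM there against a highest library of 115.1 TPM in that group. It was also lower in CPM, at 170.1 against 196.2 and 195.3 in replicates 2 and 3. The part of the mitochondrial share in this was not tested. Counts of replicate 1 differed more from replicates 2 and 3 (chi-square per degree of freedom 20.64 and 31.53) than these did from each other (4.44). CPM here means library-size-scaled counts (the usual CPM unit) after TMM scaling within each cell line, and TPM, which also divides by the length of the exons, was used wherever levels of different genes were compared.

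CDH1 and CDH2 were expressed in opposite lines. CDH1 (E-cadherin, hg38 chr16:68737292-68835537) had 4448, 5472 and 4715 counts in LoVo labelled shRNA control. LoVo labelled TWIST1 shRNA held 3251, 3361 and 3518. In MDST8 it had 0 counts in 15 of 18 libraries and 1 count in each of the other 3, which were 1 library of clone 1.1 and 2 of clone 3.5. A count of 0 allows up to 3 counts. In the 3 WT libraries that floor was 0.153 CPM on average, and CDH1 was thus at least 1851-fold higher in LoVo labelled shRNA control than in MDST8 WT and at least 1276-fold higher in LoVo labelled TWIST1 shRNA. No knockout clone exceeded 1 count of CDH1 in any library.

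CDH2 (N-cadherin, hg38 chr18:27932879-28177946) had 2247 to 3802 counts in every MDST8 library. In LoVo, the shRNA control label held 2, 1 and 9 counts and the TWIST1 shRNA label 0 in each library. Its level was 73.1 ± 1.27 TPM (SD, n = 3) in WT MDST8 and 0.0968 ± 0.105 TPM (SD, n = 3) in LoVo labelled shRNA control. The highest LoVo library held 0.217 TPM and the lowest MDST8 library 60.8 TPM. Against the LoVo libraries labelled TWIST1 shRNA, with their floor of 3 counts per library, CDH2 was at least 847.4-fold higher in MDST8 WT. The log2 ratio of CDH2 to CDH1, from TPM with 0.1 added to each, ran from 8.79 to 9.77 over the 18 MDST8 libraries and from -10.4 to -8.99 over the 6 LoVo libraries. The ratio was 9.52 ± 0.0249 in WT and 8.97 ± 0.276 in clone 3.5, the clone with the lowest mean (SD, n = 3 each). The low value of clone 3.5 rests on 1 count of CDH1 in 2 of its libraries and on its lower CDH2.

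**Figure D1:**
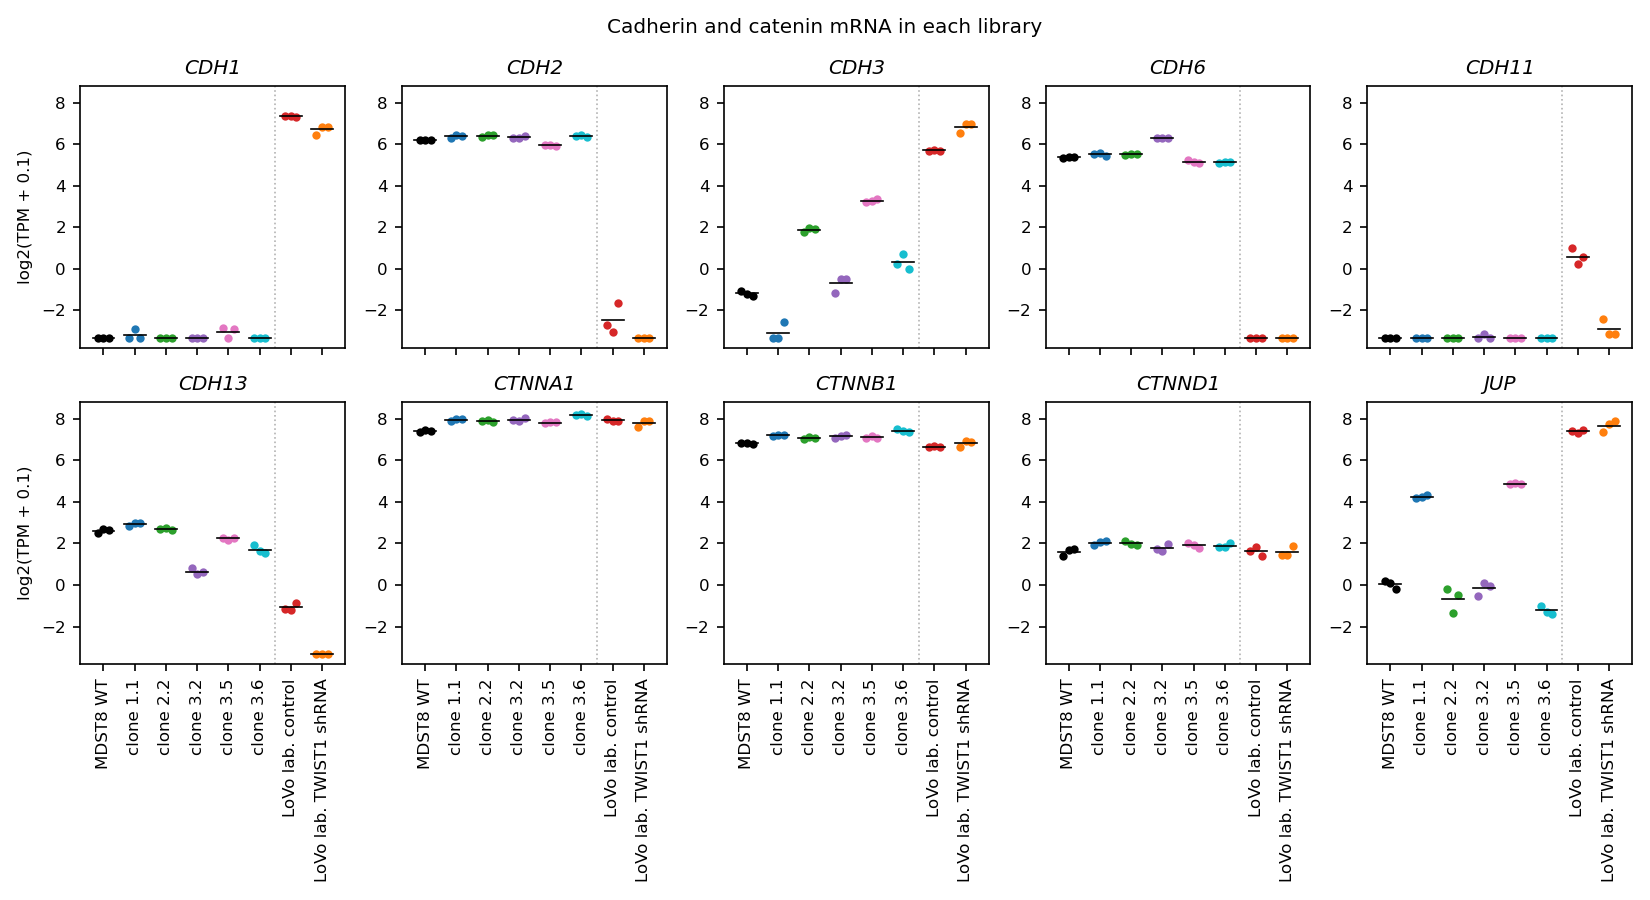
Level of each cadherin and catenin, as log2(TPM + 0.1), in each library of the 8 groups. Points are libraries, horizontal lines are group means, and the dotted line divides MDST8 from LoVo. CDH1, CDH3 and JUP were higher in every LoVo library than in any MDST8 library, and CDH2, CDH6 and CDH13 were lower.

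CDH3, CDH6 and CDH13 also separated the lines, as did CDH11 for the LoVo libraries labelled shRNA control. CDH6 (K-cadherin, hg38 chr5:31193686-31329146) had 1992 to 5230 counts in MDST8 libraries and 0 in all 6 LoVo libraries. It was at least 684.5-fold higher in MDST8 WT than in LoVo labelled shRNA control. CDH13 (T-cadherin, hg38 chr16:82626965-83800640, a cadherin held by a lipid anchor and lacking the catenin-binding tail) had 271, 321 and 317 counts in MDST8 WT, 17, 20 and 24 in LoVo labelled shRNA control and 0 in LoVo labelled TWIST1 shRNA. CDH3 (P-cadherin, of basal and progenitor epithelial cells), at hg38 chr16:68636189-68727468 just before CDH1 on the same strand, had 11, 10 and 9 counts in WT MDST8 and 1447 to 4012 in LoVo libraries. CDH11 (OB-cadherin, hg38 chr16:64943753-65126112, of osteoblasts and mesenchymal cells) had a total of 1 count over the 18 MDST8 libraries. It had 112, 77 and 88 counts in LoVo labelled shRNA control, at least 35.7-fold above MDST8 WT. With 7, 1 and 1 counts, LoVo labelled TWIST1 shRNA was not separated from MDST8. N-cadherin and K-cadherin mRNA were thus abundant in MDST8, the line with the mesenchymal markers, but OB-cadherin was not detectable there above 1 count per library.

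Of 9 members tested across the lines, 7 were called between LoVo labelled shRNA control and MDST8 WT (CDH1, CDH3, CTNNA1 and JUP up and CDH2, CDH6 and CDH13 down), in a fit where 64.6% of 14185 genes were called. The same 4 up and 3 down were called between LoVo labelled TWIST1 shRNA and MDST8 WT, where 59.6% of genes were called. Both comparisons share the WT libraries. CDH1, CDH2, CDH6 and CDH13 passed the filter on low values (given below) only through the line where they were high. With CPM scaled over all 24 libraries, CDH1 averaged 0 CPM in MDST8 WT. CDH2, CDH6 and CDH13 averaged 0.237, 0 and 1.18 CPM in LoVo labelled shRNA control. The counts of members called are therefore no result about the members. Being called here required edgeR's quasi-likelihood test to give a Benjamini-Hochberg adjusted p-value under 0.05, together with a log2 fold change of more than 0.58 in size. JUP, for example, was 221.3-fold higher in LoVo labelled shRNA control than in MDST8 WT (log2 fold change 7.79, adjusted p = 3.69e-35 from edgeR), and CDH3 was 183.4-fold higher (7.52, adjusted p = 6.03e-32 from edgeR). CTNNB1 and CTNND1 differed less, with log2 fold changes of 0.11 and 0.32, short of the threshold. The counts of each line came in a table of their own, so line and table cannot be told apart.

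Summed over the 6 cadherins, mRNA was 120.7 ± 1.94 TPM in MDST8 WT and 216.6 ± 2.33 TPM in LoVo labelled shRNA control (SD, n = 3 each). The shares below leave out the other cadherins, which summed to 129.3 and 707.5 TPM in the same groups. In WT, CDH2 made up 60.6% ± 0.388 of this sum, CDH6 34.2% ± 0.368 and CDH13 4.95% ± 0.280 (SD, n = 3). In LoVo labelled shRNA control, CDH1 made up 75.2% ± 0.309 and CDH3 23.9% ± 0.469 (SD, n = 3). In LoVo labelled TWIST1 shRNA these shares were 47.9% ± 0.199 and 52.1% ± 0.211 (SD, n = 3), and CDH3 thus passed CDH1. Among the clones, clone 3.2 had the lowest share of CDH2, 49.9% ± 1.07, with CDH6 at 48.8% ± 1.07 (SD, n = 3). Clone 3.6 had the highest share of CDH2, 68.1% ± 0.336 (SD, n = 3). Clone 3.5 had 8.67% ± 0.637 of CDH3 (SD, n = 3), against 0.283% ± 0.0379 in WT.

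**Figure D2:**
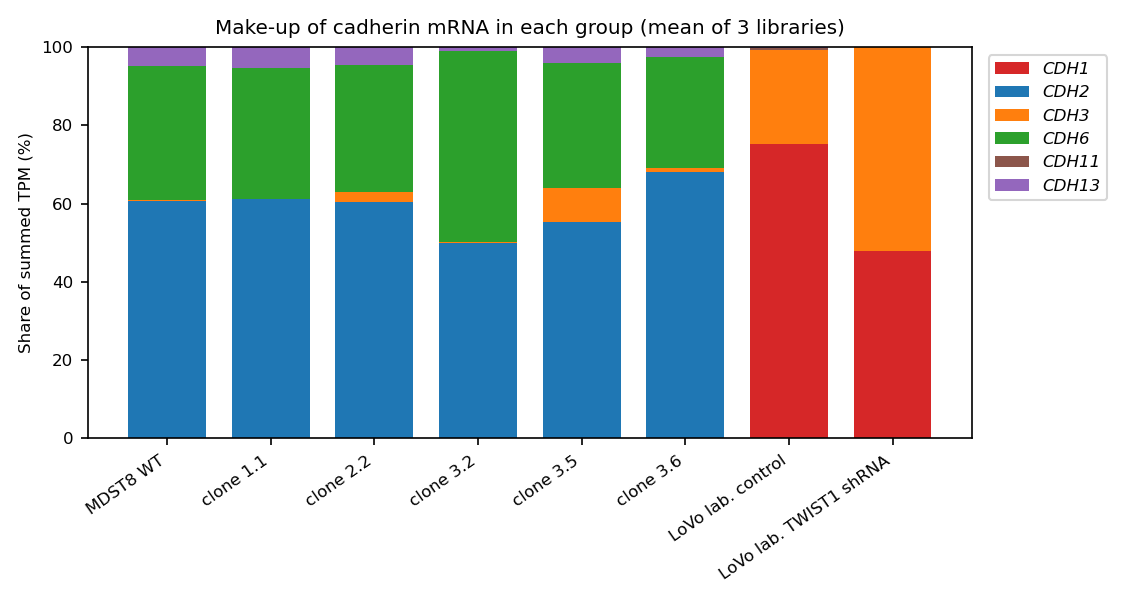
Share of each cadherin in the summed TPM of the 6 cadherins, as the mean of 3 libraries in each group. Within these 6 genes, MDST8 groups were made up mainly of CDH2 and CDH6 and LoVo groups of CDH1 and CDH3. CDH1 stood at 75.2% in the libraries labelled shRNA control and 47.9% in those labelled TWIST1 shRNA. Other cadherins are not in the sum.

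Within MDST8, the question was how the cadherins and catenins differed between WT and each TWIST1 knockout clone. All 5 comparisons share the WT libraries, and 8 members passed the filter on low values, a geometric mean of 1 RPM over the 18 libraries. CDH1 and CDH11 did not. In clone 1.1, 2 members were called (JUP up, CDH3 down), against 19.5% of all 13706 genes tested. In clone 2.2, 2 were called (CDH3 up, JUP down), against 14.7%. In clone 3.2, 2 were called (CDH6 up, CDH13 down), against 17%. In clone 3.5, 2 were called (JUP and CDH3, both up), against 18.5%. In clone 3.6, 4 were called (CDH3 and CTNNA1 up, CDH13 and JUP down), against 27.0%. With 8 members tested, these counts are coarse beside their backgrounds. In fits of a clone with WT alone, CDH3 in clone 1.1 and JUP in clones 2.2 and 3.6 were below the filter. Their calls in these clones are in the counts only because other clones held more of them. CDH3 and JUP had the largest log2 fold changes, 4.88 and 5.05 in clone 3.5.

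CDH3 was the cadherin with the widest range among clones. WT libraries held 0.588, 0.509 and 0.459 CPM of CDH3. Clone 3.5 held 14.6, 15.3 and 16.5 CPM, a 29.5-fold rise (log2 fold change 4.88, adjusted p = 2.05e-19 from edgeR). Clone 2.2 held 5.11, 5.81 and 5.62 CPM, a 10.5-fold rise (3.40, adjusted p = 9.1e-14 from edgeR). Clone 3.6 held 1.6, 2.25 and 1.36 CPM, a 3.31-fold rise (1.72, adjusted p = 4.49e-06 from edgeR). All libraries of these 3 clones lay above all WT libraries. Ranges without overlap, in either direction, held for 64.6%, 61.2% and 70.5% of all genes tested in clones 3.5, 2.2 and 3.6. Clone 3.2, with 0.552 to 0.944 CPM, overlapped WT (0.65, adjusted p = 0.104 from edgeR) and was called up without its replicate A (0.84, adjusted p = 0.0475 from edgeR). Clone 1.1 went the other way, with 0, 0 and 2 counts against 11, 10 and 9 in WT. In the fit of clone 1.1 with WT alone, CDH3 was below the filter and not tested. From the summed counts CDH3 was 15.3-fold lower in clone 1.1 than in WT, with a 95% exact interval of 3.87 to 131.7 that covers counting error only. The fitted log2 fold change of -3.70 became -6.38 without clone 1.1 replicate C, where the remaining libraries are at 0 and the fitted value is no measure of size. Even the highest clone stayed far below LoVo, at 9.65 ± 0.587 TPM in clone 3.5 and 51.7 ± 1.20 TPM in LoVo labelled shRNA control (SD, n = 3 each). By mean TPM the MDST8 groups were ordered clone 3.5, 2.2, 3.6, 3.2, WT and 1.1, and of these neighbours only clone 3.2 and WT overlapped.

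JUP (hg38 chr17:41754604-41786931) encodes plakoglobin (γ-catenin), the close relative of β-catenin that serves both adherens junctions and desmosomes. WT libraries held 23, 22 and 18 counts of JUP. Clone 1.1 held 405, 477 and 440 counts and clone 3.5 held 607, 684 and 718. JUP rose 20.5-fold in clone 1.1 (log2 fold change 4.36, adjusted p = 1.42e-23 from edgeR) and 33.1-fold in clone 3.5 (5.05, adjusted p = 1.71e-25 from edgeR). The other 3 clones stayed at WT level or below. Clone 3.6 held 10, 7 and 7 counts, a 2.84-fold fall (log2 fold change -1.50, adjusted p = 7.58e-05 from edgeR). In fits of clone 2.2 or 3.6 with WT alone, JUP was below the filter and not tested. Clone 2.2 held 18, 7 and 14 counts, overlapped WT, and was called down with a log2 fold change of -0.70 (adjusted p = 0.0329 from edgeR). That call was lost without WT replicate A (-0.60), without WT replicate B (-0.67) and without clone 2.2 replicate B (-0.37). Clone 3.2 held 13, 25 and 21 counts (-0.17, adjusted p = 0.585 from edgeR). In TPM, JUP was 0.823% ± 0.105 of CTNNB1 in WT, 12.9% ± 0.283 in clone 1.1, 21.3% ± 0.729 in clone 3.5 and 169.6% ± 11.1 in LoVo labelled shRNA control (SD, n = 3 each). By mean TPM, JUP was ordered LoVo labelled TWIST1 shRNA (205.9 ± 36.0), LoVo labelled shRNA control (168.6 ± 8.01), clone 3.5 (29.2 ± 0.366), clone 1.1 (18.9 ± 0.801), WT (0.928 ± 0.135) and clones 3.2, 2.2 and 3.6 (0.809, 0.562 and 0.333). The LoVo groups overlapped on this scale, as did each neighbouring pair from WT down. Plakoglobin mRNA was therefore a small fraction of β-catenin mRNA in every MDST8 group and exceeded it in LoVo.

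The promoters of JUP and CDH2 are shown because these genes carry the largest differences between clones and between lines, respectively, among the members with a promoter entry. Promoter sequences came from RefSeq (GRCh38.p14), where 4 of 10 members matched: CDH2, CTNNA1, CTNNB1 and JUP. CDH1, CDH3, CDH6, CDH11, CDH13 and CTNND1 did not. Each run below is the 250 bases upstream of the RefSeq start, 5′ to 3′ on the strand of the gene. The motif searched was CANNTG, the E-box, on both strands (it reads as an E-box on either strand). Capitals would mark a match, and there is none in either run.
JUP, chr17:41786712-41786961, minus strand: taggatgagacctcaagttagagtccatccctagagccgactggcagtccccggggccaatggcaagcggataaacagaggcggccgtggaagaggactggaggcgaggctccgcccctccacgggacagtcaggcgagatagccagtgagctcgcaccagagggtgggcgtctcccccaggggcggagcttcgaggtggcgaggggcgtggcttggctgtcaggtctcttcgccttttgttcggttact
CDH2, chr18:28177131-28177380, minus strand: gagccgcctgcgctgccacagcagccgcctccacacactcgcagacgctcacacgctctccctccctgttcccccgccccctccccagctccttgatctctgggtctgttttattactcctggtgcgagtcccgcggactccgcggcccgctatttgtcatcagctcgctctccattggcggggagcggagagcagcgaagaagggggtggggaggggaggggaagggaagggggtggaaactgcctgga
None of the 4 members with an entry held CANNTG in these 250 bases, whereas 61.8% of 35116 promoters in the same table did. The JUP run was 63.6% G and C and the CDH2 run 66.0%. No listed TWIST1 peak of either line overlapped the JUP or the CDH2 run.

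CDH6 and CDH13 differed mainly in clone 3.2. CDH6 had 120.8, 121.3 and 123.5 CPM in WT and 236.0, 235.1 and 227.7 CPM in clone 3.2, a 1.91-fold rise (log2 fold change 0.93, adjusted p = 1.44e-20 from edgeR). On the TPM scale clone 3.2 averaged 78.4 ± 1.09, followed by clones 2.2 (45.7 ± 0.851) and 1.1 (45.6 ± 2.17), WT (41.2 ± 0.521) and clone 3.5 (35.4 ± 1.86) (SD, n = 3 each), and clone 3.6 was lowest with libraries at 34.4 to 35.4. Clones 2.2 and 1.1 overlapped, as did clones 3.5 and 3.6. In the other clones CDH6 lay between 97.9 and 142.1 CPM, with log2 fold changes of -0.29 to 0.17. CDH13 had 14.5, 16.4 and 16.2 CPM in WT and 4.47, 3.46 and 3.66 CPM in clone 3.2, a 4.08-fold fall (-2.03, adjusted p = 4e-17 from edgeR). In clone 3.6 it had 9.27, 7.55 and 7.16 CPM, a 1.96-fold fall (-0.97, adjusted p = 1.13e-10 from edgeR). Clones 1.1, 2.2 and 3.5 had CDH13 log2 fold changes of 0.33, 0.11 and -0.29. By mean TPM, CDH13 was ordered clone 1.1, 2.2, WT, 3.5, 3.6 and 3.2, and of these neighbours only clone 2.2 and WT overlapped. CDH13 shares 21.4% of its exon bases with the antisense gene CDH13-AS2, and reads were counted without regard to strand. Reads of these genes thus cannot be told apart in that part, and featureCounts by default assigns them to neither gene. The level of CDH13 is uncertain to that extent.

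CDH2 varied least among the cadherins of MDST8. WT libraries held 148.2, 150.7 and 148.6 CPM, clones 1.1, 2.2, 3.2 and 3.6 held 159.4 to 180.5 CPM, and clone 3.5 held 132.4, 133.7 and 131.3 CPM. The ranges of clones and WT did not overlap in any of the 5 comparisons, as held for 65.9%, 61.2%, 64.5%, 64.6% and 70.5% of all genes tested in clones 1.1, 2.2, 3.2, 3.5 and 3.6. The log2 fold changes from edgeR were 0.14 to 0.23 in 4 clones and -0.17 in clone 3.5, short of the threshold. By mean TPM the MDST8 groups were ordered clone 2.2 (84.4), 3.6 (84.0), 1.1 (83.7), 3.2 (80.3), WT (73.1) and 3.5 (61.6). The first 4 overlapped their neighbours, whereas WT overlapped neither clone 3.2 nor clone 3.5. No knockout clone was called for N-cadherin mRNA, and CDH1 was at or under 1 count per library in all of them.

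**Figure D3:**
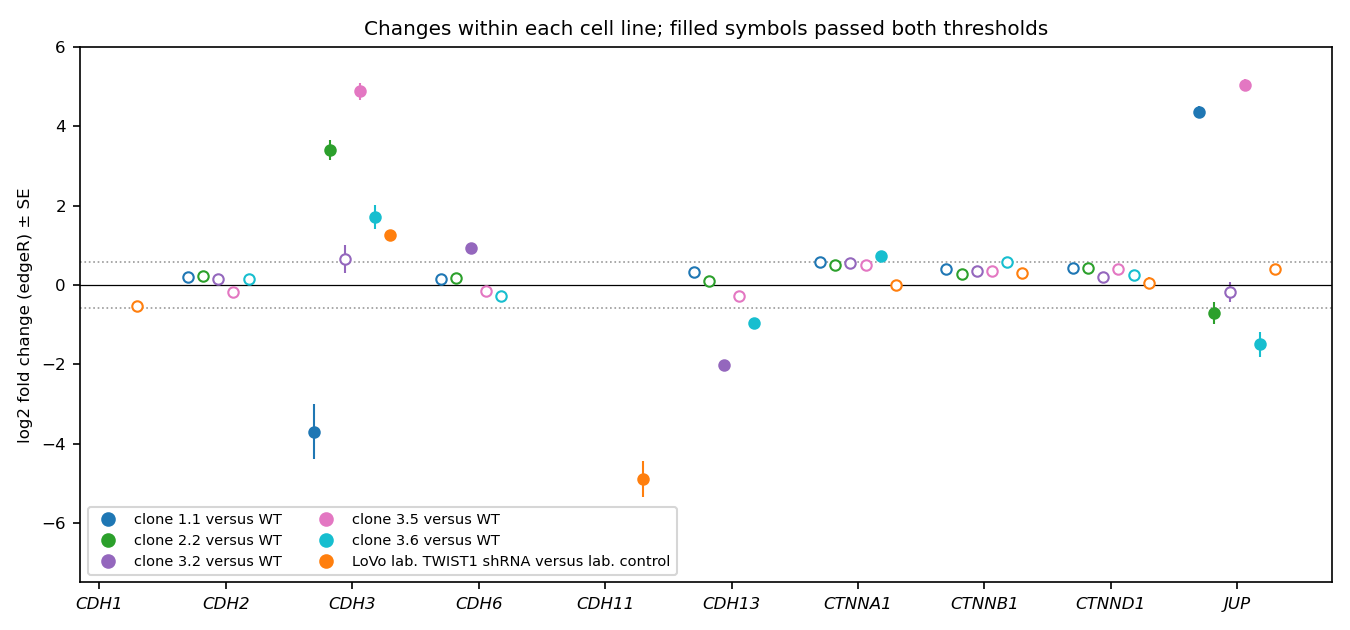
Log2 fold change from edgeR, with its standard error, for the members tested in each clone against WT and in LoVo labelled TWIST1 shRNA against labelled shRNA control. Filled symbols passed both thresholds and dotted lines mark the fold threshold of 0.58. CDH3 and JUP ranged from -3.70 to 4.88 and from -1.50 to 5.05 over the clones, and CDH2 from -0.17 to 0.23.

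The genes for α- and β-catenin moved together. CTNNA1 (hg38 chr5:138610967-138935034) had 346.4, 364.1 and 353.3 CPM in WT and 490.7 to 598.7 CPM in the 15 clone libraries. CTNNB1 (hg38 chr3:41194741-41260096) had 322.7, 310.6 and 309.7 CPM in WT and 367.4 to 483.0 CPM in the clones. All clone libraries lay above all WT libraries for both genes. In single clones, ranges without overlap with WT, in either direction, held for 61.2% to 70.5% of all genes tested. The log2 fold changes of CTNNA1 were 0.57, 0.51, 0.56, 0.50 and 0.73 in clones 1.1, 2.2, 3.2, 3.5 and 3.6, and only the last passed the fold threshold (adjusted p = 7.99e-20 from edgeR). Those of CTNNB1 were 0.39, 0.27, 0.34, 0.36 and 0.57. The adjusted p-value alone was below 0.05 with a higher level in each of the 5 clones for both genes, and 12.6% of all genes tested did the same against the shared WT libraries. Over the 18 MDST8 libraries the Pearson correlation of CTNNA1 with CTNNB1 in log2(CPM + 0.5) was 0.94, the highest of the 28 pairs among the 8 members, a description across libraries that share their clone. The correlation of CDH3 with JUP was 0.19. Ordered by TPM over all 8 groups, CTNNA1 was highest in clone 3.6 (290.5 ± 7.63), lowest in WT (169.0 ± 5.57), and between 222.0 and 247.9 in the other 6 groups (SD, n = 3 each). Clone 3.6 and WT each stood clear of their neighbours. CTNNB1 was likewise highest in clone 3.6 (172.9 ± 6.45), followed by the other clones at 133.5 to 146.4, and lowest in LoVo labelled shRNA control (99.5 ± 2.00), with WT (112.5 ± 2.25) overlapping LoVo labelled TWIST1 shRNA (113.4 ± 12.2) (SD, n = 3 each). The highest group mean was 1.72 times the lowest for CTNNA1 and 1.74 times for CTNNB1, against 618.3 times for JUP. The summed TPM of the 4 catenins was 285.4 ± 5.19 in WT and 375.0 ± 9.54 (clone 2.2) to 467.4 ± 11.7 (clone 3.6) in the clones (SD, n = 3 each).

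CTNND1 (p120-catenin, hg38 chr11:57753243-57819546) was the lowest catenin in LoVo by TPM and stayed between 175 and 312 counts in all 24 libraries. Its group means ran from 2.91 to 4.0 TPM, and all 7 neighbouring pairs of groups in that order overlapped. Its log2 fold changes in the clones were 0.19 to 0.44. It was the only one of the 8 members tested for which differences among the 5 clones did not pass the F test (adjusted p = 0.0618 from edgeR, against 81.0% of all genes passing). It did pass without replicate C of clone 3.2, 3.5 or 3.6 (adjusted p = 0.0208, 0.0402 and 0.0301 from edgeR). Its level of 2.57 to 4.25 TPM is uncertain, because 39.1% of its exon bases are shared with another gene model on the same strand, and featureCounts by default assigns reads in shared exons to neither gene. The exon overlap of the other members was at most 21.4%, that of CDH13.

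**Figure D4:**
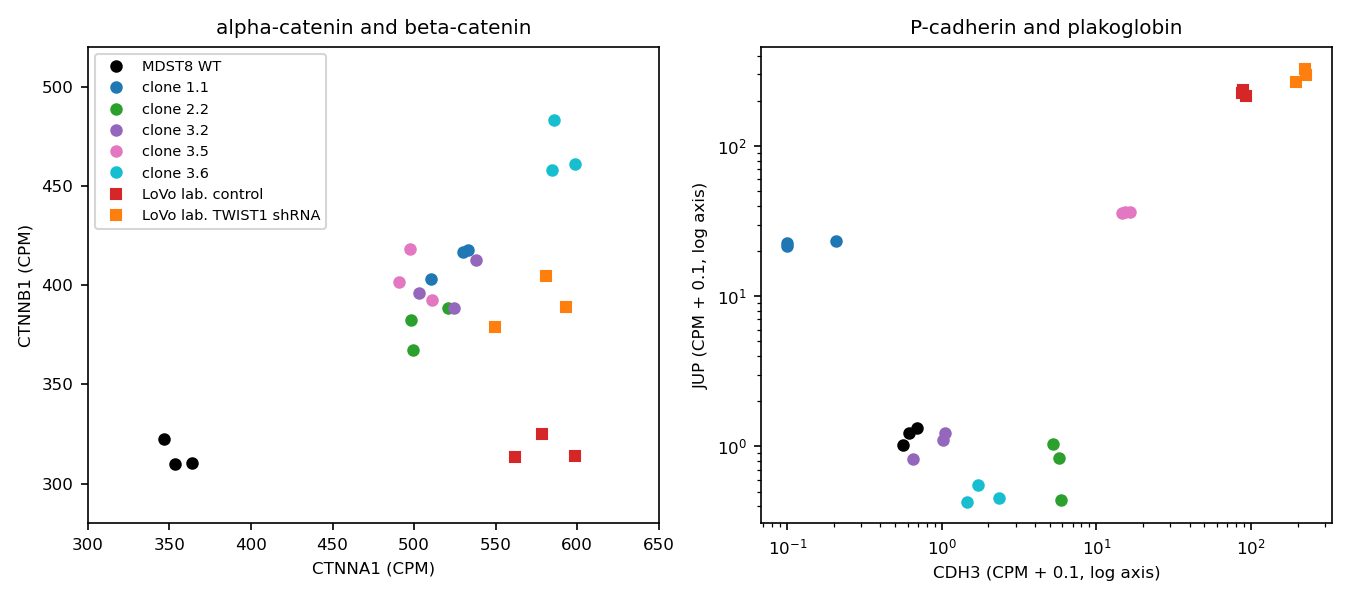
Left, CTNNA1 against CTNNB1, and right, CDH3 against JUP with 0.1 CPM added on log axes, with 1 point for each library (circles MDST8, squares LoVo) and CPM scaled within each line. The 15 clone libraries lay above the 3 WT libraries for both CTNNA1 and CTNNB1, and clones 1.1 and 3.5 stood apart from the other MDST8 groups in JUP. In single clones, 61.2% to 70.5% of all genes tested did not overlap WT.

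In LoVo, the comparison was between libraries labelled TWIST1 shRNA and labelled shRNA control, and 52.7% of 14270 genes tested were called. Of 7 members tested, 2 were called. CDH3 rose from 87.7, 92.2 and 89.3 CPM in the libraries labelled shRNA control to 194.0, 227.0 and 222.8 CPM in those labelled TWIST1 shRNA, 2.39-fold (log2 fold change 1.26, adjusted p = 2.96e-11 from edgeR). CDH11 fell from 112, 77 and 88 counts to 7, 1 and 1 counts (-4.90, adjusted p = 3.74e-08 from edgeR), a 30.6-fold difference of summed counts with a 95% exact interval of 15.9 to 67.7 for counting error. Of the 9 remaining counts, 7 were in replicate 1, and without it the log2 fold change was -6.30. CDH11 passed the filter only through the libraries labelled shRNA control, with a mean of 5.18 CPM against 0.16 CPM. CDH1 had 269.7, 271.0 and 264.9 CPM against 170.1, 196.2 and 195.3 CPM, a log2 fold change of -0.52 (adjusted p = 9.82e-07 from edgeR) that stayed short of the fold threshold, although the groups did not overlap. JUP had 224.2, 216.3 and 237.6 CPM against 266.7, 297.9 and 327.3 CPM (0.40), and CTNNB1 had 313.7, 325.2 and 313.4 CPM against 379.0, 404.7 and 389.2 CPM (0.30), both short of the threshold and without overlap. CTNNA1 and CTNND1 overlapped between the groups, with log2 fold changes of -0.01 (95% interval -0.13 to 0.10) and 0.06 (-0.21 to 0.33). Groups without overlap were common, at 79.8% of all genes tested. Under the TWIST1 shRNA label the summed colonic epithelial and mesenchymal markers were also lower, as given above. The summed fibroblast markers were higher, mostly through COL1A1 (3.12 to 65.0 CPM), whereas PDGFRB fell (1.6 to 0.668 CPM). The part of all these markers in the differences was not tested. CDH13, CDH2 and CDH6 were below the filter in LoVo. CDH13 was at least 6.76-fold lower in the libraries labelled TWIST1 shRNA, where all 3 held 0 counts, and no fold is given for CDH2. By the exact two-sided permutation test, 3 libraries against 3 cannot give a p below 0.10. That value was reached by CDH1, CDH2, CDH3, CDH11, CDH13, CTNNB1 and JUP.

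The difference between the effect in LoVo, as labelled, and the mean effect of the 5 clones was called for 4 of 9 members, against 50.7% of all genes. For CTNNA1 it was -0.61 (standard error 0.0498, adjusted p = 5.89e-13 from edgeR), with higher levels in the clones and a LoVo value near 0. With upper-quartile factors it was -0.52 and thus short of the fold threshold. For JUP it was -1.03 (standard error 0.215, adjusted p = 6.45e-05 from edgeR), where the mean of the clones joins 2 strong gains with losses. CDH2 and CDH13 were also called, but with 0 counts in every LoVo library labelled TWIST1 shRNA their fitted values are not a measure of size. The difference was not called for CDH3 (-0.16, adjusted p = 0.785 from edgeR), whose clones went both ways. These values follow the LoVo labels, which TWIST1 mRNA ran against. With the LoVo labels exchanged, an alternative chosen after seeing the data, 5 of 9 members were called, against 50.1% of all genes. CTNNA1 then had -0.55 and was no longer called, JUP had -1.79, CDH3 (-2.64) and CTNNB1 (-0.68) were called, and CDH2 and CDH13 turned positive (adjusted p = 2.51e-09 for JUP, 2.59e-05 for CDH3 and 4.7e-14 for CTNNB1, from edgeR).

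Other cadherins and junction genes were counted by list. Of 17 other cadherins, 5 were tested in MDST8 and 5 in LoVo. Their summed level was 129.3 ± 3.92 TPM in WT (SD, n = 3), mostly CDH24 and CDH4 (92.5 and 27.0 TPM), which were named after their values were seen. CDH24 was thus above CDH2, which had 73.1 TPM in WT. CDH10, a neuronal type II cadherin, was called in 4 clones, up in clone 2.2 (log2 fold change 0.73) and down in clones 1.1, 3.2 and 3.6 (-0.79, -0.77 and -1.17). The only other call in MDST8 was CDH18, down in clone 3.6 (-0.62, adjusted p = 0.0477 from edgeR), which was lost with DESeq2 (0.0744) and without any of 12 single libraries, such as WT replicate A (-0.37). Between 14.7% and 27.0% of all genes tested were called in the clones. The median log2 fold change of the 5 tested was -0.51 to 0.16 over the clones, where that of all genes was -0.01 to 0.00. In LoVo all 5 tested were called, where 52.7% of all genes were, with a median of -1.19 against 0.01 over all genes. CDH22, CDH15 and CDH12 passed the filter only through the LoVo group where they were high. Their means in the other group were 0, 0.695 and 0.401 CPM. The count of 5 is therefore no result about the list. CDH17 (LI-cadherin, of intestinal epithelium) fell from 640.9 to 18.6 TPM, from above CDH1 at 162.9 TPM to below CDH1 at 105.4 TPM. The summed level of the list was 707.5 ± 27.4 TPM in LoVo labelled shRNA control and 54.1 ± 5.02 TPM in LoVo labelled TWIST1 shRNA (SD, n = 3 each). CDH24 and CDH12 also fell (-1.19 and -2.61), and both were named after their values were seen. CDH12 was below the filter without replicate A or B labelled shRNA control. CDH22 was at 0 in LoVo labelled shRNA control and at 87 to 103 counts in LoVo labelled TWIST1 shRNA, and CDH15 rose by 3.38 on the log2 scale.

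Of 16 junction partners, 12 were tested in MDST8. Up and down calls were 4 and 1 in clone 1.1, 4 and 1 in clone 2.2, 2 and 1 in clone 3.2, 4 and 0 in clone 3.5, and 4 and 0 in clone 3.6, with median log2 fold changes of 0.09 to 0.43. The shares of all genes called in these clones, in the same order, were 19.5%, 14.7%, 17%, 18.5% and 27.0%. PTPRM, a receptor phosphatase of cell contacts, rose in 4 clones by 0.98 to 1.75 on the log2 scale and had 0.49 in clone 3.6. LIMA1, an actin-binding protein linked to α-catenin, rose in the same 4 clones by 0.68 to 0.97 and had 0.39 in clone 3.6. CTNNA2, the neuronal α-catenin, rose in clones 1.1, 3.5 and 3.6 (2.51, 1.76 and 2.24) and fell in clone 2.2 (-3.00). The fall rests on 2, 2 and 0 counts against 10 to 14 per WT library. In the fit of clone 2.2 with WT alone, CTNNA2 was below the filter and not tested. ARVCF, a p120-catenin relative, rose in clones 3.5 and 3.6 (0.65 and 1.08). The other calls, named after their values were seen, were VCL up in clones 1.1 and 2.2, CTNNBIP1 up in clones 2.2 and 3.6 (in clone 2.2 not without WT replicate C, 0.56, or clone 2.2 replicate A, 0.55), AFDN up in clone 3.6, and PTPRF down in clones 1.1 and 3.2. In LoVo 13 were tested and 8 called, 4 in each direction, against 52.7% of all genes, with a median of -0.03. There PTPRM had 1 to 2 counts per library under the shRNA control label and 506 to 581 under the TWIST1 shRNA label. PTPRM thus passed the filter only through the libraries labelled TWIST1 shRNA, and the count of 8 is no result about the list. ARVCF (0.98), NECTIN4 and NECTIN3 also rose, the last not without replicate A labelled shRNA control (0.56) or replicate 2 labelled TWIST1 shRNA (0.55), whereas LIMA1 (-1.65), PLEKHA7, AFDN and VCL fell.

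Of 12 desmosome genes, 5 were tested in MDST8, and the up and down calls were 2 and 1 in clone 1.1, 1 and 0 in clone 2.2, 3 and 1 in clone 3.2, 2 and 0 in clone 3.5, and 3 and 0 in clone 3.6, with median log2 fold changes of 0.35 to 0.71. These counts out of 5 stand beside 19.5%, 14.7%, 17%, 18.5% and 27.0% of all genes called. DSP (desmoplakin) rose in clones 1.1, 3.2, 3.5 and 3.6 by 1.15, 1.69, 3.10 and 2.81 on the log2 scale and had -0.28 in clone 2.2. PKP3 (plakophilin 3) rose in the same 4 clones by 0.67 to 1.14, though in clone 3.5 not without WT replicate C (0.56). Of these 4 clones, JUP, which also serves desmosomes, rose in clones 1.1 and 3.5. DSG2, a desmosomal cadherin, fell by 1.97 in clone 3.2 and rose by 0.69 in clone 2.2. PKP2 fell by 0.87 in clone 1.1, and PERP, named after its values were seen, rose in clones 3.2 and 3.6 (0.60 and 0.76). In LoVo 9 were tested, with PKP3 up (0.71) and DSP (-1.38), PKP2 (-1.65), DSC3, DSG3 and DSG4 down, where 52.7% of all genes were called, and a median of -1.38. DSG4 passed the filter only through the libraries labelled shRNA control (6.57 CPM, against 0.586 CPM under the TWIST1 shRNA label). The LoVo counts are therefore no result about the list.

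Of 13 regulators of CDH1, 6 were tested in MDST8, and 2 calls were made over the 5 clones, where 14.7% to 27.0% of all genes were called in each. TWIST1 fell in clone 2.2 (log2 fold change -0.65, not called without WT replicate B at -0.53) and SNAI2, named after its values were seen, fell in clone 3.6 (-0.69). The repressor mRNAs were present throughout MDST8, with group means of 88.2 to 173.4 CPM for SNAI2, 34.8 to 51.0 CPM for ZEB1 and 83.8 to 112.1 CPM for ZEB2. The epithelial factors GRHL2 and OVOL2 had group means of at most 0.0176 CPM there. In LoVo 10 were tested, with 2 up and 3 down, against 52.7% of all genes. TWIST1 and TCF4 passed the filter only through the LoVo group where they were high. These LoVo counts are therefore no result about the list. ESRP1, an epithelial splicing factor, rose from 15.5 to 388.7 CPM, and the other call up was TWIST1 itself. TWIST1 was below the filter without replicate 2 or replicate 3 labelled TWIST1 shRNA. TCF4, an E-protein partner of TWIST1, fell from 6.35 to 0.0195 CPM, OVOL2 from 18.2 to 3.22 CPM and ZEB1 from 10.4 to 4.82 CPM. GRHL2 was at 25.1 CPM in LoVo labelled shRNA control and 28.2 CPM in LoVo labelled TWIST1 shRNA.

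The genes most like each MDST8 cadherin over the 18 libraries were named by Pearson correlation of log2(CPM + 0.5) among 11929 other protein-coding genes. For CDH2 these were DGKI, FAM107B and NPTX1 (0.957, 0.943 and 0.921). For CDH3 they were TNFSF4, VIM and BAIAP2L1 (0.967, 0.959 and 0.957), for CDH6 ROBO2, GASK1B and HNRNPUL2 (0.918, 0.877 and 0.837), and for CDH13 OAS2, GDF15 and FLII (0.922, 0.912 and 0.909). Libraries of a clone share that clone, so these values describe 6 groups more than 18 independent points.

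TWIST1 ChIP-seq gave 1 peak list for each line, with no replicates. Within 3000 bp of the 5′ end of the gene in the count tables, 8 of 10 members had a listed peak in MDST8 and 6 of 10 in LoVo. Among all genes tested the shares were 76.5% and 58.2%, and among all annotated genes 63.1% and 55.7%, so the members were near the background. No promoter peak of a member had a q-value of at most 0.05 in either line. The strongest was at CDH3 in MDST8 (chr16:68636280-68636599, hg38), with its summit 246 bp downstream of the 5′ end, a fold enrichment of 3.66, a p-value of 3.4e-05 and a q-value of 0.274 as MACS2 gave them. In LoVo a CDH3 peak had its summit at -468 bp, with a fold enrichment of 2.80, a p-value of 0.00069 and a q-value of 0.751. At a p-value of at most 0.001, only CDH3 and CTNND1 had a promoter peak in MDST8 (28.3% of genes tested) and only CDH3 in LoVo (18.8%). JUP had a peak at -1705 bp in MDST8 with a p-value of 0.0074. Over whole gene bodies, a single peak reached a q-value of 0.05. It lay in CDH1 in LoVo (chr16:68799951-68800414), 62979 bp from the 5′ end, with a fold enrichment of 4.25 and a q-value of 0.0302. In LoVo 3.24% of genes tested had such a peak in the gene body, and 1550 of 333621 listed peaks reached that q-value. The tables' outermost 5′ end lies 142458 bp from the canonical transcript start of CTNNA1 and 9121 bp from that of CDH3, so the strong CDH3 peak does not lie at the canonical start. Around canonical starts 7 members had a peak in MDST8 and 6 in LoVo.

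**Figure D5:**
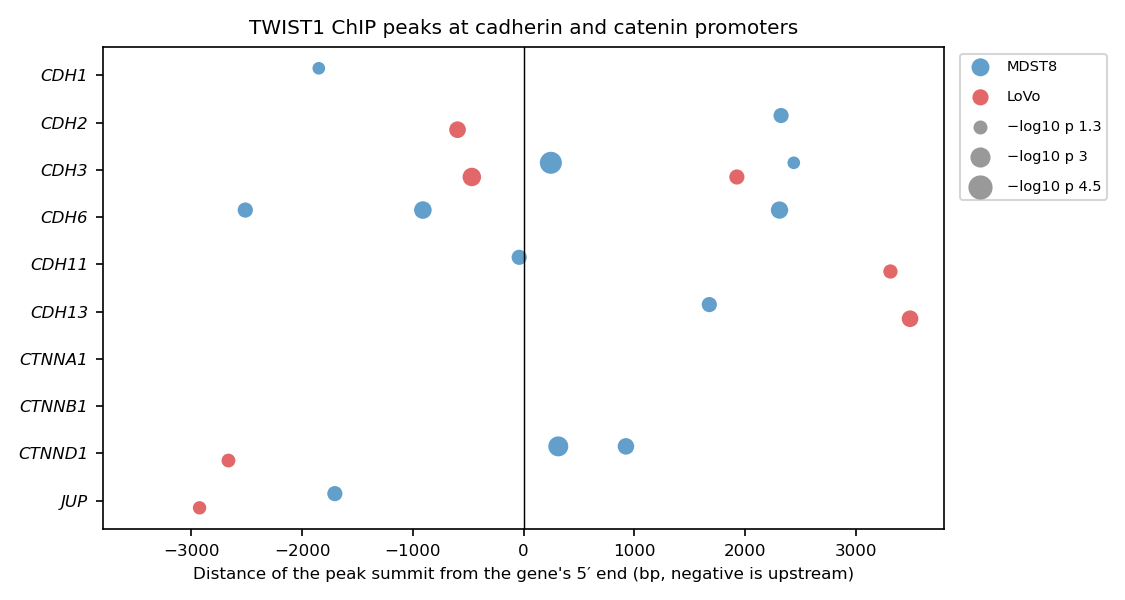
Summits of listed TWIST1 ChIP peaks that overlap the 3000 bp on either side of each gene's 5′ end, by distance in bp. Colour gives the line and the area of a point rises with the −log10 p-value of the peak. Around these 5′ ends CTNNA1 and CTNNB1 had no such peak in either line. The strongest peak was that of CDH3 in MDST8 at 246 bp. Around canonical transcript starts, not shown, CTNNA1 had a peak in both lines and CTNNB1 in MDST8, whereas CDH3 had none in MDST8.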

How the data were processed

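RNA-seq counts were deposited by the authors as fragments per gene for 24 libraries, without normalization. Per the file headers, the labels and the methods, reads were trimmed with Trim Galore 0.6.6, aligned to hg38 with HISAT2 2.1.0 and counted with featureCounts 2.0.0 on GENCODE genes, without strand. The authors also deposited exon lengths, which were used for TPM. For ChIP-seq, aligned with Bowtie 2 2.4.5, the authors deposited MACS2 2.2.7.1 peaks with a p-value below 0.05, each with a score, a fold enrichment (ratio) and −log10 p- and q-values. Whether the input library served as control was not given in the sources used here.

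Samples were grouped by their labels. The members and gene lists were chosen with earlier results of these data known. Genes were kept at a geometric mean of 1 RPM with an offset of 1, over the libraries of a fit. After TMM scaling, edgeR 4.0.16 (R 4.3.3) gave quasi-likelihood tests, with the 18 MDST8 libraries, the 6 LoVo libraries or all 24 in a fit. An F test compared the 5 clones, and a contrast compared the effects in the lines. Single genes have exact permutation tests on log2(CPM + 0.5). Groups at 0 were compared against 3 counts per library. Total counts of 16567606 to 22217009 set the depth, intervals of fold changes are normal intervals from the standard error, and intervals of counts cover counting error only. By a set rule the text names from each list up to 4 genes called in the most comparisons, ties broken by the largest absolute log2 fold change. All further genes named from the lists, whether marked so or not, were named after their values were seen. Tests were checked on simulated data. Alternatives were DESeq2 1.42.0, limma 3.58.1 on log2(count + 1), RLE and upper-quartile factors, no filter, filterByExpr, separate fits of the groups in question, the replicate letter as a block, and each library left out. Peak alternatives were windows of 1000 and 5000 bp, stricter p- and q-values, summits inside the window and, chosen after seeing the data, canonical starts. Exchanging the LoVo labels in the contrast between the lines was also chosen after seeing the data.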

Additional observations from a re-analysis of the deposited data

Results flagged for a closer look

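Differences in effect between groups were found for several members, each by a test of the difference itself. The effect in LoVo as labelled minus the mean effect of the 5 clones, on the log2 scale, was -5.32 for CDH2, -6.96 for CDH13, -0.61 for CTNNA1 and -1.03 for JUP. The values of CDH2 and CDH13 come from groups with 0 counts and depend on the prior count of the fit. The LoVo labels run against the TWIST1 counts. With these labels exchanged, the values were 5.08 for CDH2, 8.08 for CDH13, -0.55 for CTNNA1 and -1.79 for JUP.

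The 5 clones differed from each other for 7 of the 8 members tested, by edgeR's F test with Benjamini-Hochberg adjustment, as did 81.0% of all genes. The adjusted p-values were 7.55e-11 for CDH2, 1.86e-22 for CDH3, 6.44e-24 for CDH6, 3.13e-19 for CDH13, 3.8e-07 for CTNNA1, 2.33e-08 for CTNNB1 and 2.87e-30 for JUP. The largest group means were those of clone 3.5 for JUP and CDH3 and of clone 3.2 for CDH6.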

How the results depend on the processing

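Depth limits the low genes: CDH3 and JUP in several MDST8 groups, and CDH11 and CDH13 in LoVo, rest on few counts. The number of members called fell from 2 to 1 in clone 1.1 when only its own libraries and WT were fitted, since CDH3 then stayed below the filter. In clone 2.2 it fell to 1 with no filter and in that smaller fit, and lay between 1 and 2 when each library was left out. In clone 3.6 it was 3 in the smaller fit, where JUP was below the filter. In LoVo it rose to 4 with no filter, which let in CDH2 and CDH13. With no filter 13894 and 13576 genes were called between MDST8 WT and the LoVo libraries labelled shRNA control and TWIST1 shRNA, since more genes were tested. The lowest log2 CDH2 to CDH1 ratio of MDST8 moved to 10.3 and 5.90 with pseudocounts of 0.01 and 1 TPM, and the highest of LoVo to -6.45 with 1 TPM. Members with a promoter peak in MDST8 and LoVo numbered 4 and 2 with a window of 1000 bp, 2 and 1 at a p-value of at most 0.001, and 0 in both lines when q-values had to reach 0.05.

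A few values changed sign or call. CTNNA1 in LoVo gave 0.08 with upper-quartile factors and 0.05 without replicate 1 labelled TWIST1 shRNA, and CTNND1 ranged from -0.05 to 0.18 as each LoVo library was left out, with -0.05 without replicate C labelled shRNA control and -0.04 without replicate 3 labelled TWIST1 shRNA. CTNNB1 between LoVo labelled shRNA control and MDST8 WT gave -0.08 with limma on log2(count + 1), and the line difference of CDH3 ranged from -0.27 to 0.36 as each library was left out, with 0.36 without clone 1.1 replicate C. CTNNA1 in clones 1.1 and 3.2 and CTNNB1 in clone 3.6 crossed the fold threshold with upper-quartile factors (0.58, 0.58 and 0.61), with limma (0.59, 0.63 and 0.70) and in 7 fits that left out 1 library (0.58 to 0.60). The line differences of CDH2 and CDH13 turned to 5.08 and 8.08 with the LoVo labels exchanged. The cause of these changes was not tested. Replicate letters did not pair the MDST8 samples: over 45 pairs of same-letter libraries the correlation of deviations from group means was -0.131 to 0.108, with 1 above 0.1. With a replicate block, 2, 2, 2, 2 and 4 members were called in clones 1.1, 2.2, 3.2, 3.5 and 3.6, as without it, and the genes called numbered 2665, 2006, 2326, 2528 and 3704. No paired analysis was possible in LoVo because its groups do not share replicate names. The median log2 fold change of all genes exceeded 0.1 in size under another scaling in 3 comparisons, at 0.13 in clone 3.6 with limma, at -0.12 and -0.26 between LoVo labelled shRNA control and MDST8 WT with upper-quartile factors and limma, and at -0.20 between LoVo labelled TWIST1 shRNA and MDST8 WT with limma.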
